A study of Mus musculus with 12 samples.

Results

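Gapdh and 9 other enzymes of glycolysis (Hk1, Gpi1, Pfkm, Aldoa, Tpi1, Pgk1, Pgam1, Eno2 and Pkm) were followed by name through RNA sequencing of the mouse ventral hippocampus. The 10 symbols matched 11 of the 54532 entries of the count table, because Aldoa is listed under a pair of gene IDs. The 12 libraries formed 4 groups of 3: mice exposed to CSDS, mice with hepatic knockdown of ACOT12 exposed to SSDS (SSDS-shACOT12), SSDS-exposed mice that had received AAV8-eGFP (SSDS-GFP), and control mice. The labels give all mice as WT, name no virus for the CSDS and control mice, and do not spell out CSDS and SSDS, commonly used in this field for a chronic and a subthreshold form of social defeat stress. SSDS-GFP and control mice therefore differed in both virus and SSDS. The labels do not say whether replicates were separate animals, so every p-value measures the spread between these libraries. The enzymes were picked with their levels already known. Gapdh was chosen by its counts, high in some libraries and low in others, so its values are described without a test.

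Glycolysis splits glucose into pyruvate and yields ATP and NADH. The brain depends on glucose, and both neurons and astrocytes carry the pathway, partly through different isozymes. Glyceraldehyde-3-phosphate dehydrogenase, the product of Gapdh, makes the NADH of the pathway, and its mRNA is one of the most widely used reference transcripts in expression assays. Rodent genomes carry many processed pseudogenes of Gapdh, which are reverse-transcribed copies of its mRNA.

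The library totals ran from 14656714 to 17694570 counts. The share of counts on mitochondrially encoded genes was 3.23% in SSDS-shACOT12 1, 4.31% in SSDS-shACOT12 3 and 6.31% to 9.24% elsewhere. Acot12, which was knocked down in the liver, had 3 to 7 counts in SSDS-shACOT12 libraries and 3 to 8 in SSDS-GFP libraries, so its level in the hippocampus checks neither the knockdown nor the labels. Neuronal markers summed to 8672 CPM (counts scaled to the TMM-adjusted size of the library) in SSDS-GFP 3 and 10056 to 11605 CPM elsewhere. Camk2a, Snap25, Slc17a7 and Syt1 were the highest of the 10. Choroid plexus markers summed to 86 to 186 CPM in the 9 libraries of CSDS, SSDS-shACOT12 and SSDS-GFP mice, against 147 to 832 CPM in control libraries. Among these markers Ttr was at most 16.6 CPM outside the controls and 504, 141 and 7.91 CPM in them.

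Mouse Gapdh (ENSMUSG00000057666) lies on chromosome 6 at 125161715 to 125166467 on the minus strand (GRCm38, mm10). Its main transcript in GENCODE M21 has 7 exons and 1272 bases, of which 1002 are coding. Among the transcripts of that annotation, 302 loci aligned to at least 50% of the coding sequence at 80% identity or more and were in the count table. Gapdhs, the sperm-specific paralog, and others found by name or description brought the Gapdh-like loci to 305. Of these, 68 had at least 95% identity and 24 at least 99%, and they were spread over 21 chromosomes. The stretches below set Gapdh beside copies among those that collected most counts. Their place was chosen to hold the single differences of Gm5559, Gm12070 and Gm13394. How far a copy differs elsewhere is not shown by these stretches. They cover coding positions 331 to 400, counted from 1 at the A of the start codon, within exon 4 (chromosome 6, 125162962 to 125163031). Capitals mark bases that differ from Gapdh, and Gm7336 has none.
Gapdh: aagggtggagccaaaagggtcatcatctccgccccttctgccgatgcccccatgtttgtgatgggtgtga
Gm7336: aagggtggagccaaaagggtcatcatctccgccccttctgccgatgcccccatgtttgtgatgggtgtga
Gm5559: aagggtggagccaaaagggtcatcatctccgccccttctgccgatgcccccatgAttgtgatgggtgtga
Gm12070: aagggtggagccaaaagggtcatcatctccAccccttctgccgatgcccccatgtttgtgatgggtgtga
Gm13394: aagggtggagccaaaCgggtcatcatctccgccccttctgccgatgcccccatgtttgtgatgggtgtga
3000002C10Rik: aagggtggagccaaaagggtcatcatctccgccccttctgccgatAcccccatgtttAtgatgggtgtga
Gm5069: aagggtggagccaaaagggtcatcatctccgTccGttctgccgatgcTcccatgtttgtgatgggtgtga

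Over the whole coding sequence, Gm7336 on chromosome 7 (51746647 to 51747878), Gm10359 on chromosome 5 and Gm12671 on chromosome 4 were identical to Gapdh. Gm5559 on chromosome 5 differed at a single base, T385A (the Gapdh base first, then the position, then the base of the copy). Gm12070 on chromosome 11 differed only by G361A, and Gm13394 on chromosome 2, which covers 99.8% of the coding sequence, only by A346C.

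Gapdh was detected at strongly different levels in libraries of the same group. It had 5810, 164 and 150 counts in the CSDS libraries, 212, 4848 and 239 in the SSDS-shACOT12 libraries, 1669, 149 and 6318 in the SSDS-GFP libraries, and 165, 2499 and 175 in the control libraries. Each group held at least 1 high and at least 1 low library, and all 4 groups overlapped. As CPM these were 364, 9.52 and 9.06 in CSDS, 13.1, 309 and 14.8 in SSDS-shACOT12, 120, 9.78 and 361 in SSDS-GFP, and 10.9, 162 and 10.4 in control libraries. Libraries lay on either side of a wide gap: 5 had 120 to 364 CPM and 7 had 9.06 to 14.8 CPM, with no library between. The highest library was 40.2 times the lowest.

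**Figure D1:**
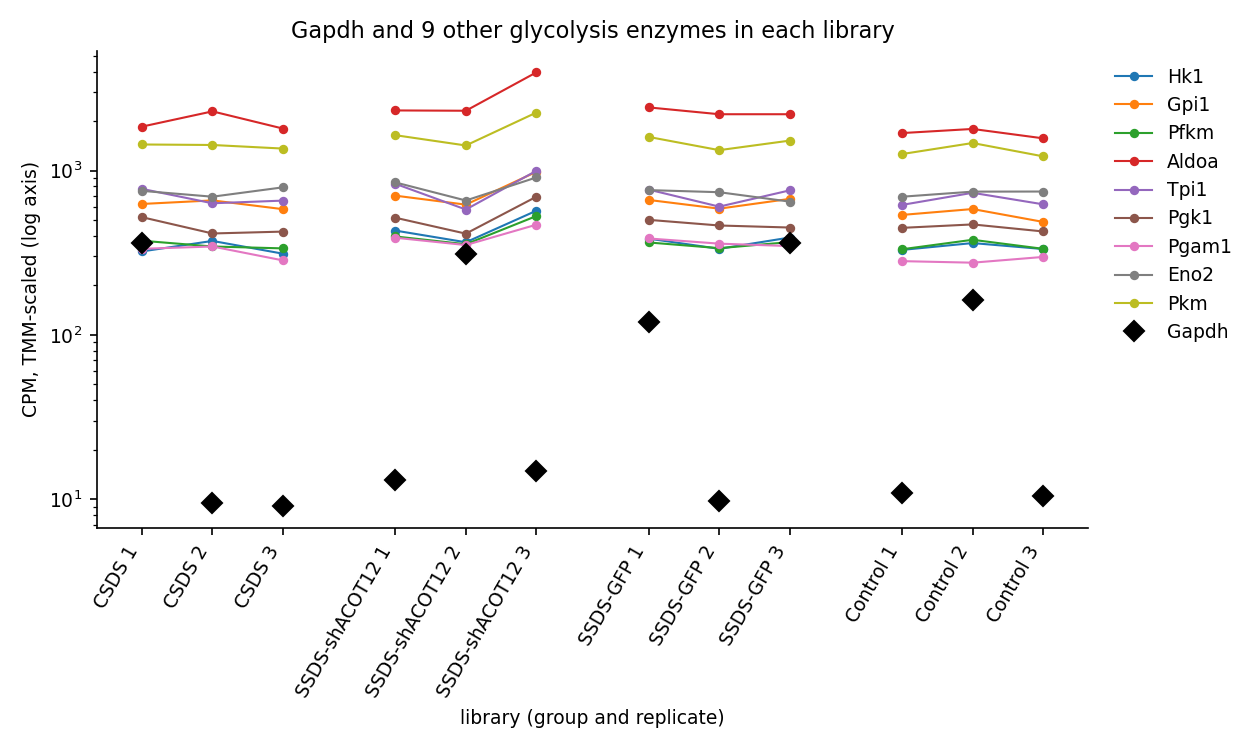
CPM (TMM-scaled, log axis) of Gapdh (black diamonds) and of the 9 other enzymes (coloured lines) in each of the 12 libraries, by group. Gapdh takes 9.06 to 14.8 CPM in 7 libraries and 120 to 364 CPM in 5, while the other enzymes vary at most 2.52-fold.

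Per length, Gapdh was the lowest of the 10 enzymes in 9 libraries and the ninth of 10 in the other 3. Its deposited FPKM was 87.5, 2.3 and 2.17 in CSDS, 3.11, 74.5 and 3.49 in SSDS-shACOT12, 28.8, 2.37 and 85.7 in SSDS-GFP, and 2.6, 38.8 and 2.51 in control libraries. Aldoa, the most abundant of the 10 per length, had 7.21 times the FPKM of Gapdh in CSDS 1 and 378 times in SSDS-shACOT12 3. The deposited length of Gapdh is 4133 bases, against 1272 bases for its main transcript, so an FPKM computed on that transcript would be higher in every library.

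Gapdh was chosen for its high and low counts, so the rank of its spread is a description only. The SD of its log2 CPM over the 12 libraries was 2.34, rank 7 among the 16915 genes tested. It was the highest of 6176 genes averaging at least 5 log2 CPM, whose median SD was 0.22. Gapdh reached that bound, with a mean of 5.32, only through its high libraries, at 6.91 to 8.51 against 3.2 to 3.9 elsewhere. Next in that set was mt-Nd3, a mitochondrially encoded subunit of respiratory complex I, with an SD of 2.01. Over those genes the median ratio of the highest to the lowest library was 1.64. The 15 other reference genes reported here ranged from 1.28-fold for Actb, the cytoskeletal actin, to 2.7-fold for Ppia, the cyclophilin A gene. The genes next to Gapdh on chromosome 6 did not share its range. Ncapd2, a condensin subunit 1540 bases away, varied 1.62-fold, and Nop2, an rRNA methyltransferase, 1.56-fold. Iffo1, which overlaps the end of Gapdh on the opposite strand, varied 1.51-fold between 49.7 and 75 CPM.

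**Figure D2:**
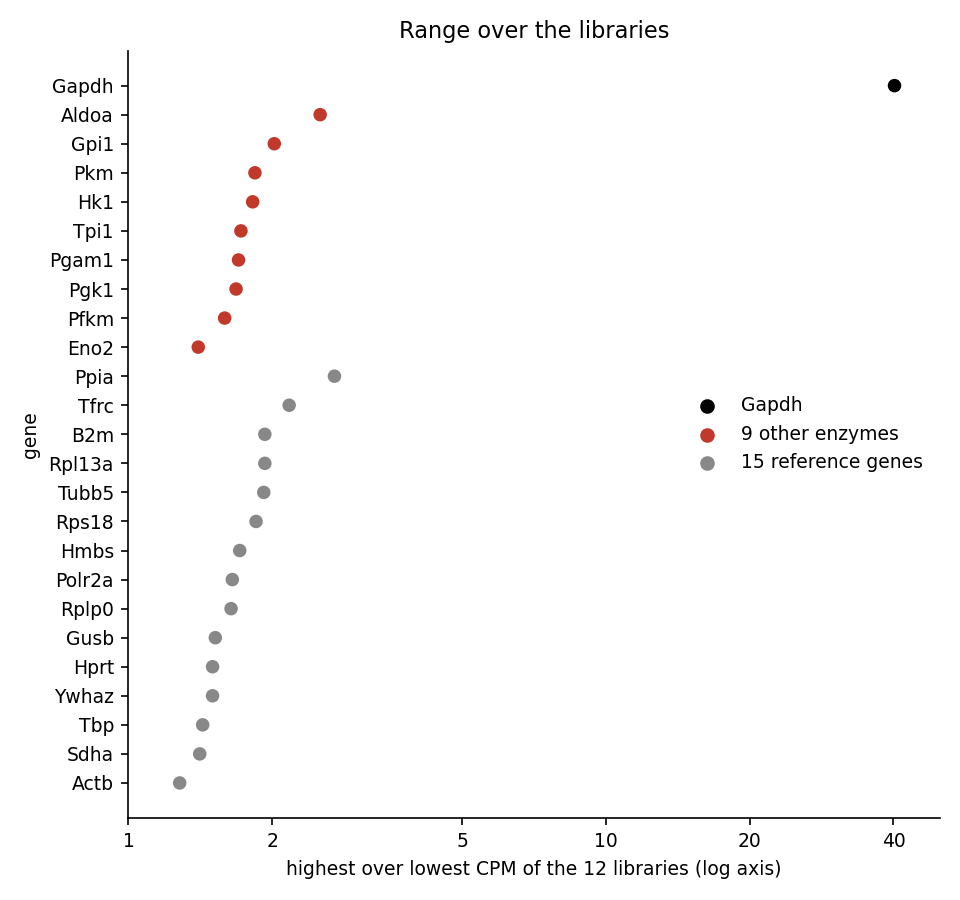
Highest over lowest CPM of the 12 libraries (log axis) for Gapdh, the 9 other enzymes and 15 reference genes. Gapdh stands at 40.2, the other enzymes between 1.4 and 2.52 and the reference genes between 1.28 and 2.7.

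The Gapdh-like loci did not mirror Gapdh. Their summed counts were 942, 1095 and 892 in CSDS, 1069, 962 and 1124 in SSDS-shACOT12, 905, 783 and 1092 in SSDS-GFP, and 1020, 766 and 984 in control libraries. The sum was 766 to 1092 in the 5 libraries with high Gapdh and 783 to 1124 in the other 7, which overlap almost fully. In those 7 libraries Gapdh had fewer counts than its copies together, down to 0.15 times their sum in CSDS 2, and in the 5 it had 1.84 to 6.17 times their sum. With the copies added to Gapdh, the highest library was 6.93 times the lowest, and a sum this even lowers the ratio by arithmetic. Whether reads matching several places were counted is not given in the sources used here, so this sum may lack them.

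Gm7336, Gm5559 and 3000002C10Rik each varied more between libraries than the sum. Of the 305 loci, 149 had no count in any library and 11 had a mean of at least 10. Gm7336, the identical copy with the most counts, had 296, 323 and 207 counts in CSDS, 305, 212 and 262 in SSDS-shACOT12, 296, 220 and 276 in SSDS-GFP, and 319, 95 and 303 in control libraries. It was lowest in Control 2, a library with high Gapdh, and within 207 to 323 counts in the other 11. Gm5559 had 104 to 191 counts and 3000002C10Rik 63 to 134 counts per library. Gm12033, a copy on chromosome 11, had 87 counts in SSDS-shACOT12 2, also a library with high Gapdh, and 1 to 9 counts in the other 11. The remaining identical copies, Gm10359 and Gm12671, had 1 count in all libraries together. How the counting treated reads that match several places is not given in the sources used here, so counts of Gapdh and of its near-identical copies are uncertain as levels of either.

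**Figure D3:**
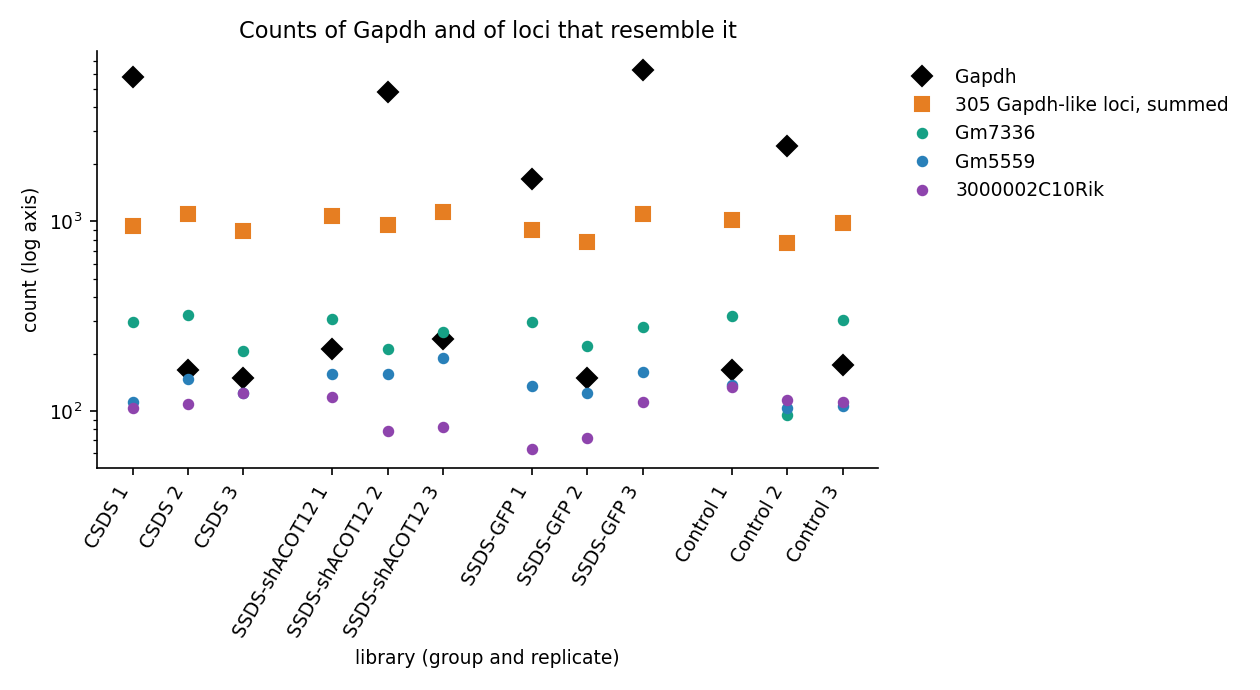
Counts (log axis) of Gapdh, of the 305 Gapdh-like loci summed, and of the 3 such loci with the highest mean count, in each library. The sum stays between 766 and 1124 counts while Gapdh takes 149 to 239 counts in 7 libraries and 1669 to 6318 in 5.

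Gapdh was not the only enzyme whose coding sequence is duplicated elsewhere. Every coding window of 100 bases of Gapdh, Pgam1 and Pgk1 occurred exactly in a transcript of another gene. The share was 15.3% for Pkm, 11.6% for Gpi1, 1.5% for Tpi1 and 0% for Aldoa, Hk1, Pfkm and Eno2. For windows of the whole transcript it was 85.8% for Gapdh, 67% for Pgk1 and 39.7% for Pgam1, since their untranslated ends are less shared. Over the libraries Pgam1 varied 1.7-fold and Pgk1 1.68-fold, against 40.2-fold for Gapdh. The part of shared sequence in these ranges was not tested. Pgam1-ps2 is identical to Pgam1 over the whole coding sequence, and Pgk1-rs7 is identical to Pgk1 in the stretch shown. Both stretches cover coding positions 331 to 400, with Pgk1 on chromosome X (106194690 to 106194759), Pgk1-rs7 on chromosome 12, Pgam1 on chromosome 19 (41915796 to 41915865) and Pgam1-ps2 on chromosome 7.
Pgk1: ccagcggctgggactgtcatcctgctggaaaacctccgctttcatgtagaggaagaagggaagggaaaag
Pgk1-rs7: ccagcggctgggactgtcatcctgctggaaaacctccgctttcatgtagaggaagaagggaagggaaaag
Pgam1: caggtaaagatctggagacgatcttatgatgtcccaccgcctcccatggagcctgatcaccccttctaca
Pgam1-ps2: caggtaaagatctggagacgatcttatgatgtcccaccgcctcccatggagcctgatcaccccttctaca

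The number of pseudogenes differed between the enzymes as well. By the same alignment rule Gapdh had 303 annotated pseudogenes, Aldoa and Pkm 10 each, Tpi1 6, Pgam1 5, Pgk1 4, Gpi1 1, and Hk1, Pfkm and Eno2 none. The pseudogenes of Pgam1 together had 24 to 47 counts per library and those of Pgk1 8 to 23, against 4235 to 7558 counts for Pgam1 and 6491 to 11175 for Pgk1. The pseudogenes of Gapdh had 745 to 1107 counts per library, more than Gapdh itself in the 7 low libraries.

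**Figure D4:**
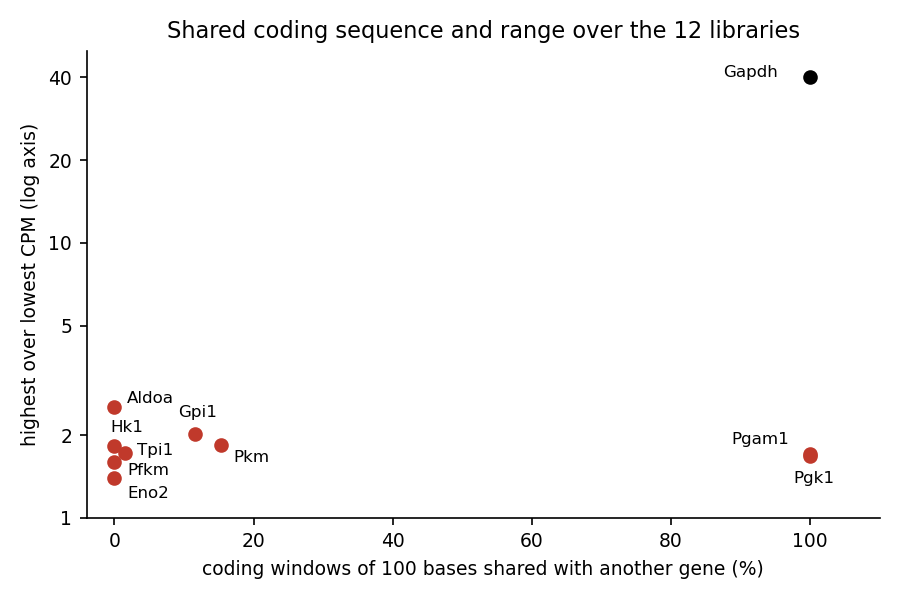
Share of coding windows of 100 bases found exactly in another gene's transcript (x axis, %) against the highest over lowest CPM of the 12 libraries (y axis, log) for the 10 enzymes. Gapdh, Pgam1 and Pgk1 all stand at 100% on the x axis, and at 40.2, 1.7 and 1.68 on the y axis.

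The genes with the pattern most like Gapdh over the 12 libraries, by Pearson correlation of log2 CPM among 12664 protein-coding genes, were Plcb2 (r = 0.912), Mrgpre (r = 0.905), Ntan1 (r = 0.903), Rftn2 (r = 0.894) and Sulf1 (r = 0.85). These are the top of a ranking over all those genes and are given as a description. Their own range was below the 40.2-fold of Gapdh: Ntan1 varied 1.34-fold, Rftn2 1.57-fold, Mrgpre 2.49-fold, Plcb2 3.07-fold and Sulf1 4.19-fold. Plcb2 and Sulf1 were low, at 1.39 to 4.27 CPM and 1.86 to 7.78 CPM. None of the other 9 enzymes followed Gapdh. Their correlation with it ran from -0.425 for Eno2 to 0.14 for Tpi1, while each correlated with the other 8 at a mean r of 0.6 for Eno2 to 0.871 for Pkm over the same 12 libraries.

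The 9 other enzymes were abundant and varied less than Gapdh, from 1.4-fold for Eno2 to 2.52-fold for Aldoa. The median range of the 6176 genes averaging at least 5 log2 CPM was 1.64-fold. By mean FPKM over all libraries the order was Aldoa (746), Pkm (296), Tpi1 (256), Pgk1 (211), Pgam1 (185), Eno2 (157), Pfkm (110), Gpi1 (98.2) and Hk1 (43.5), with Gapdh (27.8) last. Aldoa, at 536 to 1320 FPKM, lay above all others, and Hk1, at 36.3 to 64.9 FPKM, below the other 8. Between them neighbours in the order overlapped from library to library. The mean log2 CPM of the 9 was 9.29 to 9.45 in the 5 libraries with high Gapdh and 9.15 to 9.92 in the other 7.

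In the preparatory steps, Hk1, which phosphorylates glucose, had 322, 373 and 312 CPM in CSDS, 431, 366 and 569 in SSDS-shACOT12, 385, 334 and 391 in SSDS-GFP, and 329, 362 and 333 in control libraries. SSDS-shACOT12 3 stood above all others and the groups overlapped. Gpi1, which turns glucose 6-phosphate into fructose 6-phosphate, had 626, 658 and 582 CPM in CSDS, 703, 620 and 981 in SSDS-shACOT12, 662, 586 and 672 in SSDS-GFP, and 537, 583 and 487 in control libraries. All SSDS-GFP libraries lay above the controls, by as little as 586 against 583 CPM. Of all genes tested, 12.5% did so. Pfkm, the muscle-type subunit of the rate-controlling phosphofructokinase, had 374, 345 and 336 CPM in CSDS, 397, 356 and 528 in SSDS-shACOT12, 365, 337 and 367 in SSDS-GFP, and 332, 379 and 334 in control libraries. Outside SSDS-shACOT12 3 it stayed within 332 to 397 CPM.

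Aldoa, the aldolase that splits the hexose, had 1850, 2290 and 1800 CPM in CSDS, 2320, 2310 and 3950 in SSDS-shACOT12, 2420, 2200 and 2200 in SSDS-GFP, and 1690, 1790 and 1570 in control libraries. Aldoa alone of the 9 lay above all control libraries in each of the other 3 groups. Of all genes tested, 10.2% did so in CSDS and 12.5% in SSDS-GFP, and no share is given for the 3 groups at once. The second Aldoa entry (ENSMUSG00000114515, chromosome 7, 126800790 to 126809108), which lies just beyond the main entry on the same strand, had 12 to 16 counts in CSDS, 7 to 20 in SSDS-shACOT12, 11 to 15 in SSDS-GFP and 27 to 29 in control libraries. All control libraries lay above all others. Of all genes tested, 10.1% lay below all controls in CSDS and 11.4% in SSDS-GFP. Tpi1, which interconverts the triose phosphates, had 773, 632 and 656 CPM in CSDS, 830, 579 and 995 in SSDS-shACOT12, 765, 603 and 757 in SSDS-GFP, and 618, 732 and 623 in control libraries. Its lowest and highest libraries were both SSDS-shACOT12.

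In the payoff steps, Pgk1, the first ATP-forming enzyme, had 520, 414 and 425 CPM in CSDS, 516, 413 and 692 in SSDS-shACOT12, 501, 463 and 450 in SSDS-GFP, and 448, 470 and 426 in control libraries. The groups overlapped. Pgam1, the phosphoglycerate mutase, had 334, 345 and 284 CPM in CSDS, 390, 352 and 468 in SSDS-shACOT12, 386, 359 and 347 in SSDS-GFP, and 281, 275 and 298 in control libraries. All SSDS-GFP libraries lay above all controls, as did 12.5% of genes tested, and so did all SSDS-shACOT12 libraries. No share of genes is given for both groups at once, and virus and SSDS cannot be told apart here.

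Eno2, the neuronal enolase, had 752, 693 and 790 CPM in CSDS, 846, 657 and 907 in SSDS-shACOT12, 760, 738 and 647 in SSDS-GFP, and 693, 744 and 745 in control libraries. It was the most even of the 10, with a 1.4-fold range. Pkm, the pyruvate kinase that forms the last ATP, had 1440, 1430 and 1360 CPM in CSDS, 1640, 1420 and 2250 in SSDS-shACOT12, 1600, 1330 and 1520 in SSDS-GFP, and 1260, 1470 and 1220 in control libraries. SSDS-shACOT12 3 was the highest library for all 9 enzymes, and for 7 of the 15 reference genes.

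For CSDS against control, no enzyme passed the test. In the quasi-likelihood test of edgeR across all genes, 0 of the 9 had an adjusted p under 0.05, nor did any of the 16915 tested (0%). At an unadjusted p under 0.05 there were 993 (5.87%), none of them among the 9, and the Wald test of DESeq2 called 5. The median log2 fold change of the 9 was 0.06, against 0.001 over all genes tested, and 8 of 9 were positive, against 50.3% of all genes. Aldoa had 0.23 ± 0.19 (SE, adjusted p = 0.922 in edgeR) and was alone among the 9 in having all CSDS libraries above all controls, as were 10.2% of genes tested. Gpi1 had 0.21 ± 0.16 and Pgam1 0.17 ± 0.13 (SE, adjusted p = 0.913 each in edgeR). At the other end, Hk1 had -0.02 ± 0.15 (SE, adjusted p = 0.997 in edgeR). The second Aldoa entry, below all controls like 10.1% of genes tested, stood at -1.05 ± 0.36 (SE, adjusted p = 0.849 in edgeR). The Gapdh log2 fold change, given without a test, was 1.06, which became -2.72 without CSDS 1 and 3.58 without Control 2.

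For SSDS-shACOT12 against SSDS-GFP, again 0 of 9 enzymes passed the test, nor did any of the 16915 genes in edgeR (0%). At an unadjusted p under 0.05 there were 766 (4.53%), none of them among the 9. The DESeq2 Wald test also called none of the 9. All 9 fold changes were positive, with a median log2 fold change of 0.26, against 0.014 over all genes, of which 52% were positive. They ran from 0.15 ± 0.13 for Pgam1 to 0.33 ± 0.19 for Aldoa (SE, adjusted p = 0.803 each in edgeR). No enzyme had all SSDS-shACOT12 libraries above all SSDS-GFP libraries, against 2.23% of genes tested. Against all 3 SSDS-GFP libraries the median changed with the libraries left out, of which SSDS-shACOT12 1 and 3 had the low mitochondrial share. Without SSDS-shACOT12 3 the median was 0.05, and with SSDS-shACOT12 1 and 3 both left out it was -0.05, with 1 of 9 positive. Between libraries of the same number, a comparison added after seeing the data, SSDS-shACOT12 was higher than SSDS-GFP for 8 of 9 enzymes in pair 1, 5 of 9 in pair 2 and 9 of 9 in pair 3, with median log2 differences of 0.09, 0.07 and 0.54. Hk1, Gpi1, Pfkm and Pkm were higher within all 3 pairs, as were 15% of genes tested. The part of the mitochondrial share in this was not tested. The Gapdh log2 fold change, given without a test, was -0.55, which became -3.56 without SSDS-shACOT12 2 and 0.79 without SSDS-GFP 3.

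For SSDS-GFP against control, where virus and SSDS cannot be told apart, 0 of 9 enzymes passed the test, while 16 of 16915 genes did (0.0946%). Pgam1 and Aldoa had an unadjusted p under 0.05 in edgeR, as did 15.2% of genes tested. The median log2 fold change of the 9 was 0.12, against 0.006 over all genes, and 8 of 9 were positive, against 50.8% of all genes. Aldoa, Gpi1 and Pgam1 had all SSDS-GFP libraries above all controls, as did 12.5% of genes tested. Pgam1 had 0.36 ± 0.13 (SE, adjusted p = 0.219 in edgeR) and Aldoa 0.44 ± 0.19 (SE, adjusted p = 0.305 in edgeR). Eno2 had -0.02 ± 0.13 (SE, adjusted p = 0.952 in edgeR). The second Aldoa entry went the other way from the main one, at -1.01 ± 0.36 (SE, adjusted p = 0.216 in edgeR), and lay below all controls like 11.4% of genes tested. The Gapdh log2 fold change, given without a test, was 1.42, which became 0.1 without SSDS-GFP 3 and 3.94 without Control 2. The control libraries are shared with the comparison of CSDS, so the values of both are not independent.

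**Figure D5:**
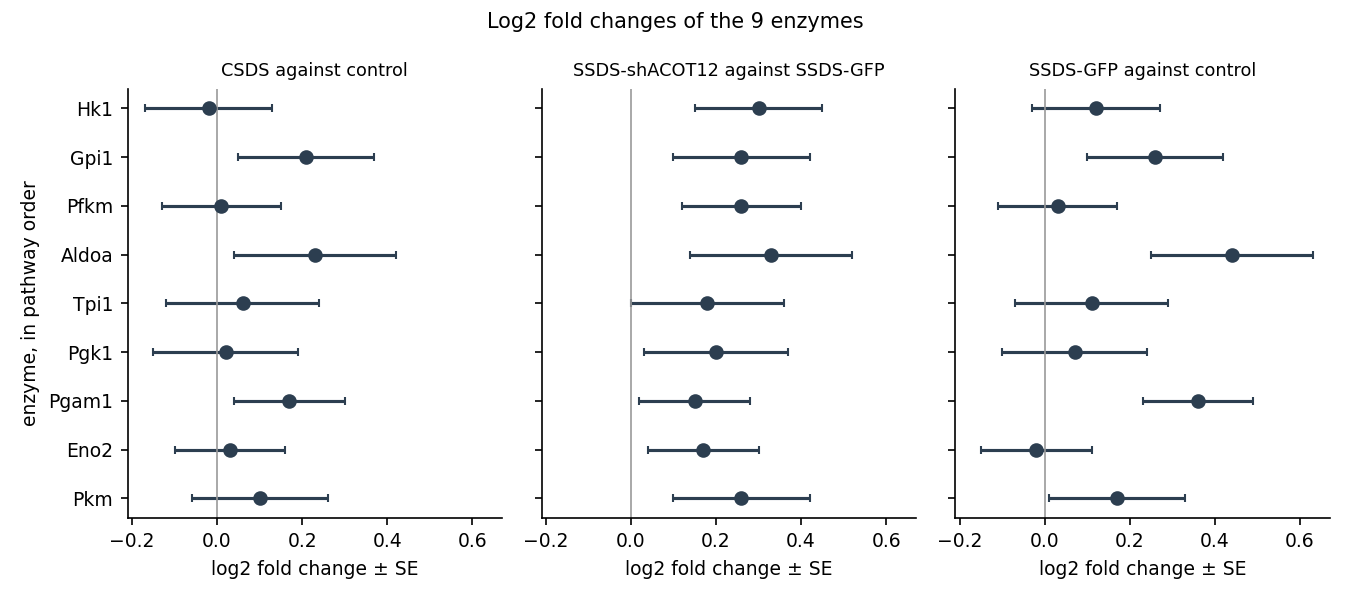
Log2 fold change ± SE of the 9 enzymes other than Gapdh, in pathway order from top to bottom, in the 3 comparisons. No enzyme passed the adjusted threshold; the medians were 0.06, 0.26 and 0.12.

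Marker sums moved between these groups too. Red cell markers summed to 332 to 387 CPM in CSDS, against 88 to 120 CPM in control libraries, with all 5 tested of 7 listed members higher in every CSDS library, as were 10.2% of genes tested, and none passing the test. Markers of the dentate gyrus summed to 765 to 995 CPM in CSDS and 848 to 885 CPM in SSDS-GFP, against 1040 to 1189 CPM in control libraries, and 8 of the 10 lay below all controls in CSDS, against 10.1% of genes tested, and 6 in SSDS-GFP, against 11.4% of genes tested. In the SSDS-shACOT12 libraries they summed to 581 to 835 CPM, against 848 to 885 CPM in SSDS-GFP. Astrocyte markers overlapped, at 3847 to 4371 CPM in CSDS and 4266 to 4787 CPM in control libraries. Their part in the enzyme levels was not tested, and in bulk tissue fewer cells of a type and less RNA per cell cannot be told apart.

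Around the pathway, no isozyme stood out by the test either. None of the 14 tested of 16 listed isozymes passed the test in any comparison, with median log2 fold changes of -0.01 for CSDS against control, 0.2 for SSDS-shACOT12 against SSDS-GFP and 0.15 for SSDS-GFP against control. Eno1, the ubiquitous enolase, had 841, 940 and 838 CPM in CSDS and 973, 936 and 880 in SSDS-GFP, against 720, 731 and 667 in control libraries. Its log2 fold changes were 0.31 ± 0.17 for CSDS (SE, adjusted p = 0.88 in edgeR) and 0.4 ± 0.18 for SSDS-GFP (SE, adjusted p = 0.305 in edgeR). Aldoc, the astrocyte-enriched aldolase, overlapped between all groups, with 0.12 ± 0.19 for CSDS against control (SE, adjusted p = 0.974 in edgeR). Gapdhs, the paralog of Gapdh in sperm, had 11 to 31 counts in every library.

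None of the 8 tested regulators of the pathway, the 15 genes of glucose entry and glycogen, the 16 genes of pyruvate fate or the 8 genes of the pentose phosphate branch passed the test in any comparison. Mpc2, a subunit of the mitochondrial pyruvate carrier, came nearest, with 144, 120 and 136 CPM in SSDS-GFP, against 89.1, 98.3 and 88.4 CPM in control libraries. All SSDS-GFP libraries lay above the controls, as did 12.5% of genes tested, and the log2 fold change was 0.54 ± 0.12 (SE, adjusted p = 0.116 in edgeR). At the other end of the genes of pyruvate fate, whose median was 0, Pdp2 had -0.54. It had 6.06, 6.76 and 6.63 CPM in SSDS-GFP and 9.15, 10.3 and 8.92 CPM in control libraries, below all controls like 11.4% of genes tested. Ldha, a lactate dehydrogenase subunit, had 0.25 ± 0.16 in the same comparison (SE, adjusted p = 0.469 in edgeR), and Slc2a1, the glucose transporter of the blood-brain barrier and glia, -0.44 ± 0.24 (SE, adjusted p = 0.407 in edgeR). Slc2a1 had 69.7, 76.9 and 85 CPM in SSDS-GFP and 92.6, 145 and 75.5 CPM in control libraries. The groups overlapped, and Control 2 stood highest. Endothelial markers summed to 377 to 413 CPM in SSDS-GFP, against 418 to 467 CPM in control libraries. Of these 10 markers 8 had negative log2 fold changes and 4 lay below all controls, against 11.4% of genes tested, none passed the test, and their part in the Slc2a1 value was not tested. Of the 7 tested genes of gluconeogenesis and glycerol metabolism none passed either, and Fbp1, Fbp2, Pck1 and G6pc had too few counts to be tested.

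A single gene of these lists passed the test. P4ha1, a collagen prolyl hydroxylase subunit and known hypoxia-inducible target, had 104, 93.8 and 84.1 CPM in SSDS-GFP, against 52.3, 52 and 55.9 CPM in control libraries. All SSDS-GFP libraries lay above the controls, as did 12.5% of genes tested. It rose by 0.81 ± 0.12 on the log2 scale (SE, adjusted p = 0.0179 in edgeR). It was 1 of 12 hypoxia-inducible genes in the list, while 0.0946% of genes tested were called. In that comparison 11 of the 12 had positive log2 fold changes, with a median of 0.35, against 50.8% of genes tested and a median of 0.006. The largest, Car9 at 0.88, had only 6, 10 and 6 counts in SSDS-GFP and 7, 1 and 4 in control libraries. The list was chosen with earlier results known and does not hold every hypoxia-inducible gene. Whether hypoxia had a part in these values was not tested. Vegfa, the endothelial growth factor, had 0.58 ± 0.17 for CSDS against control (SE, adjusted p = 0.849 in edgeR) and 0.44 ± 0.17 for SSDS-GFP against control (SE, adjusted p = 0.252 in edgeR). For the 12 genes the median was 0.08 for CSDS against control and 0 for SSDS-shACOT12 against SSDS-GFP.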

How the data were processed

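The authors deposited raw counts per gene and FPKM values for 12 libraries. Per the submitters' processing notes, the tools were HISAT2 2.0.5, featureCounts 1.5.0-p3 and DESeq2, with genome build mm10. The strand setting, the annotation release and the treatment of reads that match several places are not given in the sources used here. The library kit named in the labels does not mark strand, so reads in the short overlap of Gapdh and Iffo1, outside the main Gapdh transcript, cannot be assigned by strand.

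All comparisons used the deposited counts, in edgeR 4.0.16 under R 4.3.3. Its filterByExpr kept 16915 genes at a minimum count of 10 and a minimum total of 15. TMM scaling was followed by a quasi-likelihood test with group as the only factor over all 12 libraries, 2-sided, with Benjamini-Hochberg adjustment over all genes. Each SE was derived from that test, as the absolute log2 fold change divided by the square root of its F statistic. Log2 CPM used a prior count of 2. Members, lists and tests were chosen with earlier results of these data known, and the genes named follow one rule: members in full, the 3 Gapdh-like loci with the highest mean count, and of each list the most abundant, the called and the extreme members. Gm12070, Gm13394, Gm5069, Gm12033, Gm10359 and Gm12671 were named after their counts or sequences were seen. A reference gene of the lists and a short sequence are not reported here. Alternatives were DESeq2 1.42.0, limma 3.58.1 on FPKM, other scalings and filters, a replicate block, a removed length trend, and each library left out. The fits were tested on simulated data. Gapdh-like loci were found with BLAST 2.17.0 in GENCODE M21 transcripts, whose GRCm38 build is the mm10 of the files, and the sequences come from there. The deposited gene length is in bases per the file headers, a quantity other than expression.

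Between SSDS-shACOT12 and SSDS-GFP, deviations of same-numbered libraries from their group means correlated at 0.196, 0.419 and 0.353, all over the bound of 0.1. No other pair of groups had more than 1 of 3 over it. Libraries of different numbers were not compared, and the labels do not say what a number shares, so a pairing is not established.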

Additional observations from a re-analysis of the deposited data

How the results depend on the processing

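None of the 9 enzymes was called in any comparison under any alternative. The median log2 fold change of the 9 ran from 0.02 to 0.15 for CSDS against control, 0.05 to 0.37 for SSDS-shACOT12 against SSDS-GFP and 0.07 to 0.22 for SSDS-GFP against control when each library was left out. With SSDS-shACOT12 1 and 3 both left out, an alternative added after seeing the data that assumes the lone library to vary like the other groups, the median of SSDS-shACOT12 against SSDS-GFP was -0.05, and Pkm (-0.06), Eno2 (-0.12), Tpi1 (-0.29), Gpi1 (-0.05), Pgk1 (-0.19), Hk1 (-0.02), Pgam1 (-0.05) and Pfkm (0, just below) changed sign. With the length trend removed, small values changed sign for CSDS against control in Pgk1 (-0.06), Hk1 (0.05) and Pfkm (0), and for SSDS-GFP against control in Pgk1 (-0.03) and Pfkm (0). Leaving out single libraries changed the sign of further values near 0: for CSDS against control Eno2 ranged from 0 to 0.08, Tpi1 from -0.03 to 0.15, Pgk1 from -0.09 to 0.08, Hk1 from -0.11 to 0.03 and Pfkm from -0.03 to 0.09, for SSDS-shACOT12 against SSDS-GFP Tpi1 from 0 to 0.36, Pgk1 from -0.02 to 0.35 and the second Aldoa entry from -0.4 to 0.26, and for SSDS-GFP against control Eno2 from -0.09 to 0.05 and Pfkm from 0 to 0.1.

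The count of all genes called depended on the fit, and the cause was not tested. For CSDS against control it was 0, but 5 by the DESeq2 Wald test, 132 with no filter, 84 with only the 6 libraries compared, 2 without SSDS-shACOT12 1 and 3, and 0 to 2 with each library left out. For SSDS-shACOT12 against SSDS-GFP it was 0, but 108 with no filter, 5 without SSDS-shACOT12 1 and 3, and 0 to 985 with each library left out, the highest without SSDS-shACOT12 2. For SSDS-GFP against control it was 16, but 523 by DESeq2, 608 with no filter, 34 with only the 6 libraries compared, 232 without SSDS-shACOT12 1 and 3, and 4 to 111 with each library left out. With the replicate number as a block it was 9 in that comparison. The block changed no enzyme's call, with a median log2 fold change of 0.23 in the 6 SSDS libraries and 0.25 in all 12. The range of Gapdh was 40.2-fold, and 6.93-fold with its copies added. The copies summed to similar counts in libraries with high and low Gapdh, so adding them lowers the ratio by arithmetic.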
